A study of Mus musculus with 4 samples.

Results

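The interferon regulatory factors are a family of transcription factors, and 7 of their genes were followed here: Irf1, Irf2, Irf3, Irf4, Irf7, Irf8 and Irf9. They were taken by gene symbol from the 12020 usable rows of a deposited read count table. The choice of members was made with earlier results of these data known. All 7 were among the 11312 genes that passed the filter on low counts. The libraries came from natural killer T (NKT) cells of C57BL/6 mice aged 10 to 12 weeks, which carried a Vα14 T cell receptor transgene (Va14 Tg) and a GFP gene at 1 copy of the Cxcr6 locus (cxcr6gfp/+). Such cells bear a receptor that recognises lipids held by CD1d, and they were sorted by a high GFP signal. The resting group (2 libraries) was kept without stimulus, and the tetramer group (2 libraries) was stimulated on plates bearing mCD1d-PBS57 tetramers, mouse CD1d carrying the lipid PBS57. Genotype, strain and age were shared by both groups, and the sources used here state no culture time. The tissue label is liver, while the sorting protocol speaks of livers or spleens and the RNA protocol of islets. Libraries are called by group and by the number in the table's column names, 4 or 5.

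All members of the family bind DNA through a conserved amino-terminal domain that reads GAAA repeats. IRF3 and IRF7 are activated by kinases downstream of nucleic acid sensors and switch on type I interferon genes. IRF9 is the DNA-binding subunit of the complex ISGF3, which carries the signal of type I interferon to antiviral genes, while IRF1 is induced by interferon gamma and IRF2 can oppose it at shared sites. IRF4 and IRF8 are the lymphoid and myeloid members. They bind DNA weakly alone and are recruited by partners such as BATF with JUN proteins, or PU.1 and SPIB. In T cells IRF4 is induced through the antigen receptor in proportion to its signal and supports clonal expansion and effector functions.

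The tetramer libraries differed from the resting ones in the levels of some family members. Irf4 rose 40.0-fold and Irf8 15.3-fold after stimulation, Irf7 and Irf9 fell 4.24-fold and 2.39-fold, and Irf1, Irf2 and Irf3 did not pass the test. Thus 2 of 7 members were called higher, where 14.3% of all tested genes were, and 2 of 7 were called lower, where 12.1% were, or 4 of 7 against 26.4% in either direction (edgeR's quasi-likelihood test, Benjamini-Hochberg adjusted p below 0.05 over all 11312 genes). With library totals in place of TMM scaling factors, the median log2 change of all genes was -0.35 rather than -0.06, and calls over all genes went from 1620 higher and 1366 lower to 1193 and 2250. The 4 calls in the family kept their directions and stayed past the threshold under that change.

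Before the values, the upstream sequence of 4 members is shown, since family members are themselves targets of interferon and receptor signals: Irf4 and Irf8 as the members that rose, and Irf1 and Irf2 as members that did not pass the test but whose windows hold motifs. Each run gives the 250 bases before the annotated start, 5′ to 3′ on the gene's strand, from RefSeq's build GRCm38.p6. The build differs from the mm9 that the submitters' processing notes name for the reads, so no count is placed on these coordinates. Capitals mark matches, on either strand, to the interferon-stimulated response element (GAAA, 2 bases of any kind, GAAA), the gamma-activated site of interferon gamma signalling (TTCNNNGAA), the AP-1 site (TGANTCA) or the NF-kB consensus. For genes with more than 1 annotated start, the most upstream is shown. The windows lie on the plus strand at chr13:30748983-30749232 (Irf4), chr8:120736108-120736357 (Irf8), chr11:53769764-53770013 (Irf1) and chr8:46739495-46739744 (Irf2).
Irf4: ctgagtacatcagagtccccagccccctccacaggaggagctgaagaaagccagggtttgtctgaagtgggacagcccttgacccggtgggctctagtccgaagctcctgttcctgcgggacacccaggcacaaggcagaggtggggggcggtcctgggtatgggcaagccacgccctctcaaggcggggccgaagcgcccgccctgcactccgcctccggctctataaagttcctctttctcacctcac
Irf8: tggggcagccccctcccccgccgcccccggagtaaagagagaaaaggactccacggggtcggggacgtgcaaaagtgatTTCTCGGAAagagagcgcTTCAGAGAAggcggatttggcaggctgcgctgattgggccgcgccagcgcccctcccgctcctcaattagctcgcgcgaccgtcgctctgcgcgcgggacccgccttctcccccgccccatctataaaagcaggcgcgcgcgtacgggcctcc
Irf1: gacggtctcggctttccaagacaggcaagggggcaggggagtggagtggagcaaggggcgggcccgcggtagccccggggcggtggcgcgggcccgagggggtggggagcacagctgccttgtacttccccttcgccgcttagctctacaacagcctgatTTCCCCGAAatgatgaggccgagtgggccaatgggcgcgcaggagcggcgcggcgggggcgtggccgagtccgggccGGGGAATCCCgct
Irf2: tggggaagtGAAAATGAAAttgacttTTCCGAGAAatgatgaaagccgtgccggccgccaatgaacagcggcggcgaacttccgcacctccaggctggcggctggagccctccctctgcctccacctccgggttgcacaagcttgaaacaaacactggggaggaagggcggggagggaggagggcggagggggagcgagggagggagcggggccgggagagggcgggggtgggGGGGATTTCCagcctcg

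In the Irf8 window 2 gamma-activated sites matched, from 171 to 163 and from 153 to 145 bases before the start, and they do not overlap each other. The Irf1 window held 1 gamma-activated site, 90 to 82 bases before the start, and 1 NF-kB match, 13 to 4 bases before it. Irf2 had the only interferon-stimulated response element among the 7 genes, at 241 to 232 bases, beside a gamma-activated site at 224 to 216 bases and an NF-kB match at 17 to 8 bases before the start. None of the 4 motifs matched in the windows of Irf3, Irf4, Irf7 and Irf9, nor at the second annotated starts of Irf1, Irf8 and Irf9, which says only that these letters are not there. Over all 32851 promoter windows of the same length, 7.02% held a gamma-activated site, 2.98% an interferon-stimulated response element, 6.75% an AP-1 site and 3.90% an NF-kB match.

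Total counts per library ranged from 4168438 to 5495521. Counting noise did not account for the differences within a group, where chi-square divided by its degrees of freedom was 30.9 (resting) and 28.0 (tetramer), so each library counts once. Markers of NKT and T cells were plentiful, and 12 of 12 were tested, with summed levels of 3507 to 3742 CPM (counts per 1000000 counts of the TMM-scaled library) at rest and 2763 to 3623 CPM after stimulation. The 2 most abundant were Il2rb and Cxcr6. Of the 12, 0 rose and 2 fell, Cxcr6 itself by 1.26 and Klrb1c by 4.13 on the log2 scale. Over all tested genes 14.3% were called higher and 12.1% lower. Islet hormone transcripts, on a list of pancreatic markers included because the extraction protocol speaks of islets, summed to 265 and 978 CPM in resting libraries 4 and 5 and to 235 and 426 CPM in tetramer libraries 4 and 5, with Ins2 and Ins1 leading. The part of these transcripts in the results below was not tested. In bulk samples such as these, fewer cells of a type and less RNA per cell cannot be told apart.

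Irf4, the factor induced by antigen receptor signals, was counted 40 times in resting library 4 and 14 times in resting library 5, against 1062 and 1169 times in the tetramer pair. Scaled to library size, this was 8.29 and 2.99 CPM at rest against 217 and 236 CPM after stimulation. The tetramer libraries lay close together and far above both resting ones. The log2 fold change was 5.32 ± 0.49 (SE, n = 2 each, adjusted p = 1.69e-08). The resting level was the uncertain part of this fold. Without resting library 4, the higher of the pair, the log2 fold change was 6.25, and without resting library 5 it was 4.79.

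Irf8, best known from myeloid and B cell development, had 53 and 99 counts at rest and 1495 and 927 counts after stimulation, in libraries 4 and 5 of each group. These were 11 and 21.2 CPM against 306 and 188 CPM, so the groups did not overlap. Its log2 fold change was 3.94 ± 0.44 (adjusted p = 5.11e-07) and lay between 3.56 and 4.51 when single libraries were left out. Tetramer library 4 was the higher for Irf8, while the tetramer libraries differed little for Irf4.

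Because Irf4 and Irf8 are also expressed by B cells, macrophages and dendritic cells, and Irf7 by plasmacytoid dendritic cells, markers of these cells were read in the same libraries. The counts of calls given here stand beside 14.3% called higher and 12.1% called lower over all tested genes. Of 8 B cell markers 5 were tested, and their summed level was 48.3 to 72.0 CPM at rest and 28.9 to 32.0 CPM after stimulation, with 1 called higher and 1 lower (Cd79b). Cd22 and Cd79b were the most abundant, and Pax5 had no usable row in the count table. For macrophages and conventional dendritic cells, 7 of 15 markers were tested, summing to 382 to 432 CPM at rest and 159 to 346 CPM in the tetramer libraries, with 1 higher (Itgax) and 2 lower (H2-Aa and Csf1r). Xcr1 and H2-Ab1 led that list, and Lyz2 and the C1q genes had no usable row in the count table. Plasmacytoid dendritic cell markers, 6 of 6 tested, summed to 290 to 503 CPM at rest and 77.3 to 102 CPM after stimulation, with 0 higher and 1 lower, Ccr9, which led the list with Bst2. The summed level of each of these 3 lists was lower in both tetramer libraries than in both resting ones. For the plasmacytoid list this was carried by Ccr9, at 462 and 223 CPM in resting libraries 4 and 5 and 13.5 and 41.3 CPM in the tetramer pair. Without it the other 5 markers summed to 40.8 and 67.1 CPM at rest and 63.8 and 60.9 CPM after stimulation, and the groups overlapped. Bst2 had means of 18.4 ± 8.44 and 33.1 ± 8.76 CPM and did not pass the test (adjusted p = 0.189). The B cell and macrophage sums stayed lower in both tetramer libraries without Cd22 and Xcr1, their most abundant markers. Their part in these results was not tested. Granulocyte markers (2 of 6 tested, S100a9 and S100a8, 18.0 to 19.5 CPM at rest and 1.84 to 3.24 CPM after stimulation, 2 lower) and hepatocyte markers (3 of 8 tested, led by Serpina1a and Trf, 38.5 to 59.0 and 13.7 to 18.2 CPM, 2 lower) moved the same way.

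**Figure D1:**
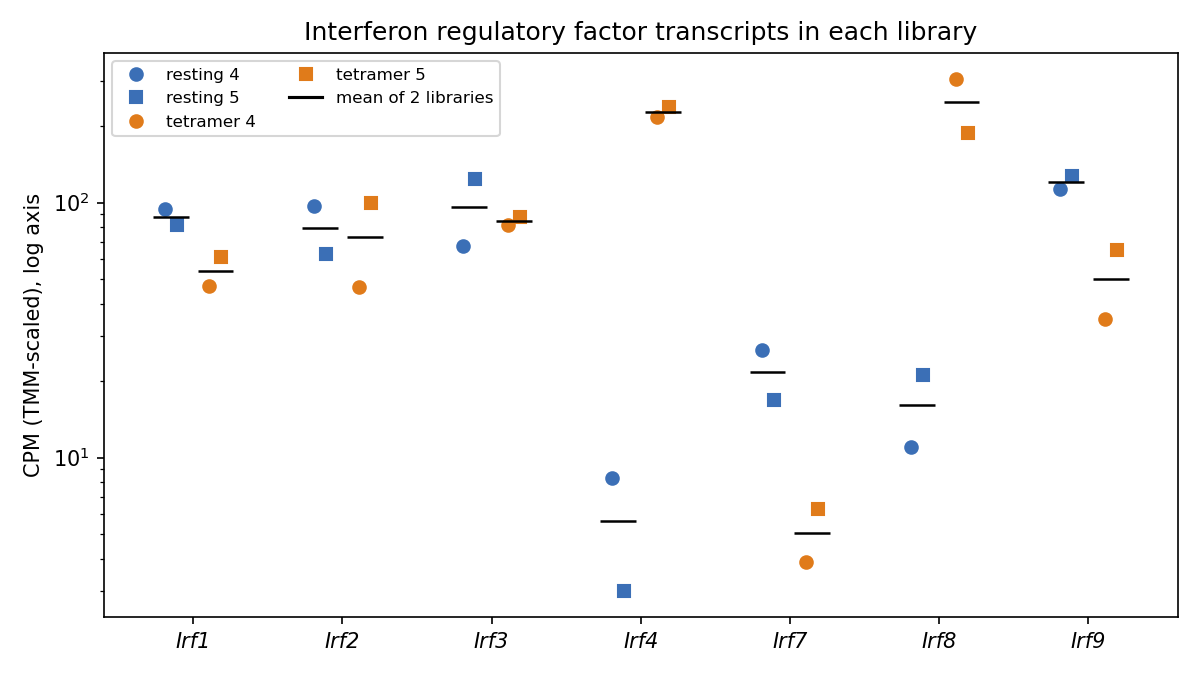
CPM of each of the 7 transcripts on a log axis, with circles for library 4 and squares for library 5 of the resting (blue) and tetramer (orange) groups and black bars at the mean of 2 libraries. Irf4 and Irf8 lie at 21.2 CPM or less at rest and at 188 CPM or more after stimulation, while the points of Irf2 and Irf3 are intermingled.

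Irf7, the interferon-inducible amplifier of type I interferon genes, had 127 and 79 counts at rest and 19 and 31 after stimulation. In scaled units these were 26.3 and 16.9 CPM against 3.89 and 6.27 CPM, with both tetramer libraries below both resting ones. The log2 fold change was -2.08 ± 0.56 (adjusted p = 0.00724). This call was lost without tetramer library 4, at -1.76 (adjusted p = 0.167), a fit that lends the lone tetramer library the spread of the other group. In that fit, calls over all genes dropped to 622 higher and 313 lower.

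Irf9, the DNA-binding subunit of ISGF3, had 545 and 593 counts at rest and 171 and 323 after stimulation. Its levels were 113 and 127 CPM in the resting libraries and 35 and 65.3 CPM in the tetramer libraries, again without overlap. The log2 fold change was -1.26 ± 0.39 (adjusted p = 0.0189). Its call too was lost without tetramer library 4, at -0.86 (adjusted p = 0.368), and against a fold of 1.5 (adjusted p = 0.0720). Irf4 and Irf8 were called with any single library left out.

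Irf1, the interferon gamma-inducible activator, was at 94.5 and 81.6 CPM at rest and at 47.3 and 60.9 CPM after stimulation. The 2 groups did not overlap, but the log2 fold change of -0.70 ± 0.38 did not pass the threshold (adjusted p = 0.173), and its 95% interval ran from -1.48 to 0.08. Its window holds the gamma-activated site shown above, and Ifng, the gene of interferon gamma, rose from 17.9 ± 4.56 to 1125 ± 513 CPM (SD, n = 2 each) in the same libraries. Any link between Ifng and the level of Irf1 was not tested. In all, 5 of the 7 members had groups that did not overlap, against 65.2% of tested genes: 2 with the tetramer libraries above (31.6% of genes) and 3 with them below (33.7%).

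Irf2, the family member that can repress IRF1 target genes, was at 96.5 and 62.6 CPM in the resting libraries and at 46.4 and 99.5 CPM in the tetramer libraries. The tetramer pair spanned the resting pair. Its log2 fold change was -0.12 ± 0.41 (adjusted p = 0.850), with a 95% interval from -0.96 to 0.71. Irf3, the constitutive factor downstream of nucleic acid sensors, was at 67.7 and 124 CPM at rest and at 81.6 and 87.8 CPM after stimulation. Here both tetramer libraries fell between the resting ones. Its log2 fold change was -0.18 ± 0.38 (adjusted p = 0.769), with an interval from -0.96 to 0.61. For Irf2 and Irf3 the sign changed with the library left out (-0.77 to 0.34 and -0.53 to 0.35), so these data give them no direction and leave room for changes of close to 2-fold.

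**Figure D2:**
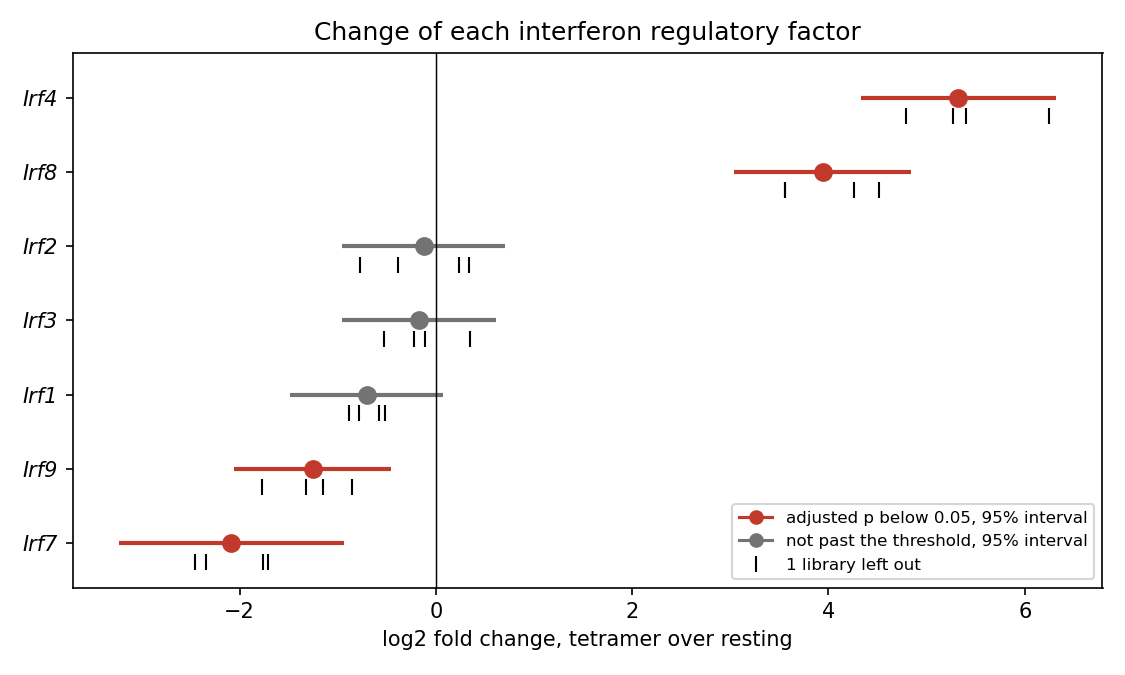
Change of each member on the log2 scale, as tetramer over resting, with its 95% interval, in red where the adjusted p is below 0.05 and grey otherwise, and black ticks for the value with 1 library left out. The ticks of Irf2 and Irf3 fall on both sides of 0, and those of Irf4 and Irf8 lie at 3.56 or higher.

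The annotation places exons of other genes over small stretches of 4 members, and whether the authors' counting used strand is not stated in any source here. In GENCODE M21, Irf7 shares 1.19% of its exonic bases with Phrf1 on the opposite strand, Irf9 2.28% with Rnf31 on the same strand, Irf3 2.56% with Bcl2l12 and Irf1 3.40% with Gm17334, both on the opposite strand. Phrf1 and Rnf31 had log2 fold changes of -0.15 ± 0.47 and -0.58 ± 0.42 and did not pass the threshold (adjusted p = 0.836 and 0.321). Irf2, Irf4 and Irf8 shared no exonic base with another gene. Outside the 7 members, Irf5 was sparse, with 16 and 17 counts at rest and 15 and 12 after stimulation (log2 fold change -0.34 ± 0.66, adjusted p = 0.744).

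To set the members beside each other, CPM were divided by the longest annotated coding length, 987 to 1395 bases. On this scale of CPM per kilobase, Irf1 at 89.2 ± 9.20, Irf9 at 85.9 ± 7.0, Irf3 at 76.2 ± 31.5 and Irf2 at 76.0 ± 22.9 were the most abundant at rest (SD, n = 2), and they differed from one another by less than the spread of the libraries of Irf3 and Irf2. Irf7 at 15.8 ± 4.86 and Irf8 at 12.6 ± 5.66 followed, again within their spread. Irf4 was lowest at 4.18 ± 2.77, and on this scale its libraries did not overlap those of Irf8. After stimulation the order began with Irf8 at 194 ± 65.8 and Irf4 at 168 ± 10.0, which overlapped. Irf2 at 69.7 ± 35.8, Irf3 at 67.4 ± 3.46, Irf1 at 54.8 ± 9.76 and Irf9 at 36.0 ± 15.4 came next. Among these, Irf3 and Irf1 did not overlap, Irf2 overlapped the others, and the ranges of Irf1 and Irf9 failed to overlap by a narrow margin. Irf7 was lowest at 3.70 ± 1.23.

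The make-up of the family's transcripts turned over accordingly. Irf4 and Irf8 together made up 4.14% and 5.19% of the summed CPM per coding kilobase of the 7 members in the resting pair (libraries 4 and 5, in that order), and 68.4% and 53.7% of it in the tetramer pair. The share of Irf1, Irf2 and Irf3 went from 67.8% and 66.4% to 26.8% and 37.7%. Irf7 and Irf9 went from 28.1% and 28.4% to 4.76% and 8.56%. Resting libraries were alike in these sums, whereas tetramer library 4 stood farther from them than tetramer library 5. The summed level of the 7 was 357 and 363 CPM per kilobase at rest and 587 and 601 after stimulation. Dividing by all annotated exons instead, a scale added after the data were seen, gave Irf4 and Irf8 3.70% and 3.74% at rest and 64.0% and 52.4% after stimulation. On that scale Irf3 came first at rest and Irf4 first after stimulation, so the order among near neighbours depends on the length used.

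**Figure D3:**
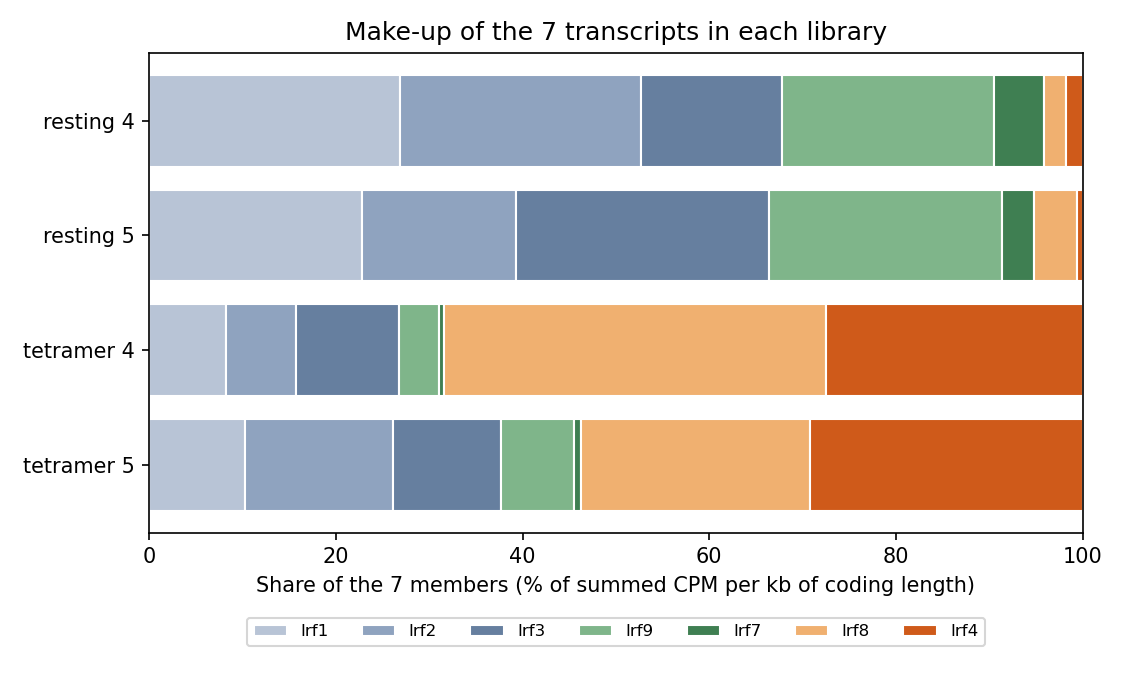
Share of each member in the summed CPM per kilobase of coding length of the 7 transcripts, with 1 bar per library adding to 100%. Irf8 and Irf4 (orange) fill 68.4% and 53.7% of the tetramer bars and 4.14% and 5.19% of the resting bars.

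The genes whose pattern over the 4 libraries was closest to that of each member were found by the root mean square difference of gene-centred log2 CPM among 7410 named genes with a mean of at least 10 CPM. For Irf4 they were Egr3, an early receptor-induced factor, at 0.33, the CD30 ligand gene Tnfsf8 at 0.45 and the proliferation marker Mki67 at 0.49. For Irf8 they were Tnfrsf9, which encodes the costimulatory receptor 4-1BB, the tubulin gene Tubb6 and the adaptor gene Scimp, each at 0.18. The nearest to Irf7 were Acer2, Apol7b and Fam65b at 0.08 to 0.09, and to Irf9 Lonrf1, Ncam1 and Pisd-ps3 at 0.04 to 0.05. Of the members that did not pass the test, Irf1 was nearest to Mettl23, Mia3 and Lbr at 0.02 to 0.04. Irf2 was nearest to Sbf2, Nceh1 and Mphosph9 at 0.04 to 0.07, and Irf3 to Wrb, Gstp2 and Aptx at 0.02 to 0.04. With 4 libraries such likeness is a description only.

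Partners that recruit IRF4 and IRF8 to DNA went in both directions. Of 11 tested, 4 rose, 2 fell and 5 were not called, with a median log2 fold change of 0.24. Over all tested genes 14.3% rose, 12.1% fell and the median was -0.06. Batf, the partner of IRF4 at composite AP-1 elements, rose from 42.7 ± 11.8 to 129 ± 1.83 CPM. It was called with any single library left out, and was named, like Jund and Nfatc1, after the values were known. Jun rose from 16.4 ± 1.25 to 67.9 ± 44.5 CPM (log2 fold change 2.05 ± 0.47), and Jund and Nfatc1 rose by 1.66 and 1.43 on the log2 scale. Without tetramer library 5 the calls of Jun, Jund and Nfatc1 were lost and 1 rise was left. Spib, the lymphoid relative of PU.1, fell from 19.6 ± 10.7 to 4.17 ± 0.97 CPM, and was not called without resting library 5 (log2 fold change -1.50) or tetramer library 4 (-1.99). Bcl6, a repressor whose sites can overlap those of other factors, fell from 93.4 ± 47.2 to 14.2 ± 10.2 CPM (log2 fold change -2.72 ± 0.50). Its change was -2.07 without resting library 4, -2.10 without tetramer library 4 and -3.74 without tetramer library 5, each past the threshold. Of 14 genes listed, Spi1 had no usable row in the count table, and Batf2 and Batf3 did not pass the filter on low counts.

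Corepressors that bind IRF2 also appeared in the table. Of the 3 genes, 0 rose and 2 fell, where 12.1% of all genes fell, and their median log2 fold change was -1.14. Against a fold of 1.5, 1 of them was called. Irf2bp2 fell from 91.2 ± 7.35 to 28.7 ± 1.49 CPM (log2 fold change -1.67 ± 0.40, adjusted p = 0.00298), and Irf2bpl from 253 ± 7.63 to 114 ± 12.3 CPM (-1.14 ± 0.36, adjusted p = 0.0206). Neither was called without tetramer library 4, and Irf2bpl also lost its call without resting library 5 or tetramer library 5. Irf2bp1 was at 42.0 ± 4.34 and 41.8 ± 17.8 CPM. Among 8 proteins that bind or modify family members, 2 rose and 0 fell, beside 14.3% and 12.1% of all genes, with a median of 0.43. With library totals, or against a fold of 1.5, 1 rose. The immunophilin gene Fkbp4 rose by 1.42 ± 0.38 on the log2 scale. Its call was lost without resting library 5, and without tetramer library 5 no gene of the list was called.

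Among genes upstream of IRF3 and IRF7, Myd88 and Chuk passed the test. Of 20 sensors, adaptors and kinases listed, 16 were tested. Of these, 1 rose and 1 fell, or 2 in either direction beside 26.4% of all genes, with a median log2 fold change of 0.31. Against a fold of 1.5, 0 were called higher and 0 lower. Myd88, the adaptor of Toll-like receptors, rose from 34.4 ± 7.60 to 89.2 ± 38.8 CPM, though not past the threshold without resting library 4 or tetramer library 4. Chuk, which encodes IKKα, was called lower at -1.50 ± 0.56 (adjusted p = 0.0473). This rested on resting library 4, where it stood at 45.6 CPM against 12.2 CPM in resting library 5, and without resting library 4 its log2 fold change was -0.24 (adjusted p = 0.802). The call was also lost without either tetramer library, with DESeq2's size factors, with no filter, with DESeq2 and with limma-voom, and the groups overlapped. With library totals 3 members were called lower, Chuk and also Tbk1 (-1.64, adjusted p = 0.0138) and Ddx58 (-1.37, adjusted p = 0.0355), both named after their values were seen.

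Receptors for interferon and their signalling components were lower in several cases, beside the fall of Irf9. Of 12 tested, 0 rose and 6 fell, with a median log2 fold change of -0.97 against -0.06 over all tested genes, and 12.1% of all genes fell. Against a fold of 1.5, 1 was called lower. Ifngr1, the ligand-binding chain of the interferon gamma receptor, fell from 655 ± 15.1 to 82.0 ± 28.8 CPM (log2 fold change -3.00 ± 0.40, adjusted p = 5.26e-06) and was called with any single library left out. Stat2, the partner of IRF9 in ISGF3, fell from 53.3 ± 16.1 to 21.5 ± 10.8 CPM (-1.31 ± 0.45), and Ifngr2 from 38.3 ± 10.8 to 16 ± 3.47 CPM (-1.26 ± 0.46). The change of Stat2 was -1.93 without tetramer library 5, but -0.95 without resting library 4 and -0.85 without tetramer library 4. For Ifngr2 the change ran from -1.51 to -0.92 with single libraries left out. Ifnar1 and Ifnar2, the chains of the type I interferon receptor, and the kinase gene Jak1 made up the other 3, by -1.18, -1.26 and -1.04 on the log2 scale (chosen for naming after seeing their values). With single libraries left out, the change of Ifnar1 ran from -1.51 to -0.70 and that of Ifnar2 from -1.65 to -0.93. Jak1 lost its call without any one of the 4 libraries. Without tetramer library 4 only 1 member, Ifngr1, was called lower. Without resting library 5 there were 2, and without resting library 4 or tetramer library 5 there were 4. Of 10 interferon ligand genes listed, Ifng was the only one with a usable row in the count table. Its log2 fold change was 5.97 ± 0.49 (adjusted p = 4.45e-09).

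Antiviral genes that respond to ISGF3 included Samd9l, Rtp4 and 6 others that fell. Of 25 tested, 1 rose, 8 fell and 16 were not called, 21 had a log2 fold change below 0, and the median was -0.96. Over all genes 14.3% rose, 12.1% fell and 52% had a value below 0. Samd9l, an antiviral factor, fell from 54.4 ± 1.04 to 4.25 ± 4.28 CPM (log2 fold change -3.67 ± 0.58), at -2.88 without tetramer library 4 and -5.43 without tetramer library 5. Rtp4 fell from 8.59 ± 3.38 to 1.42 ± 1.14 CPM, and its change was -1.92 without tetramer library 4, where the call was lost, and -3.74 without tetramer library 5. The gene that rose was Ifitm3, a restriction factor of virus entry, which rose from 4.14 ± 3.51 to 27.6 ± 10.7 CPM (2.73 ± 0.61), with a change of 2.07 without resting library 4 and 4.06 without resting library 5. Without tetramer library 4, 1 member was called lower, and without tetramer library 5 there were 4.

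Genes known to respond to IRF1 included Il12rb1 and Iigp1, which rose, and Gbp9, which fell. Of 27 tested, 6 rose, 4 fell and 17 were not called, beside 14.3% higher and 12.1% lower over all genes, and the median was 0.12 against -0.06. With library totals the balance turned round, with 3 higher and 6 lower. Il12rb1, a subunit of the interleukin 12 receptor, rose from 19.9 ± 9.09 to 186 ± 20.1 CPM and the immunity-related GTPase Iigp1 from 10.3 ± 1.71 to 45.8 ± 9.84 CPM. Gbp9, a guanylate-binding protein, fell from 21.7 ± 3.24 to 4.58 ± 0.11 CPM, but without tetramer library 4 no member of the list was called lower. Guanylate-binding proteins and immunity-related GTPases are close copies, and no source here says how reads shared between copies were counted, so their values are uncertain.

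Genes reported to depend on IRF4 in activated T cells were higher in 8 of 15 cases and lower in 0, beside 14.3% and 12.1% of all genes, with a median log2 fold change of 1.40 against -0.06. Gzmb, which encodes granzyme B, rose from 0.85 ± 0.61 to 99.6 ± 75.3 CPM, the cytokine gene Il21 from 0.53 ± 0.16 to 37.5 ± 22.2 CPM, and the hexokinase gene Hk2 from 1.90 ± 0.64 to 35.9 ± 20.7 CPM. Resting counts were few, 2 and 6 for Gzmb, 2 and 3 for Il21 and 7 and 11 for Hk2, so these folds are imprecise. Without tetramer library 4, the log2 change was 5.75 for Gzmb, 5.32 for Il21 and 3.48 for Hk2, and for Gzmb it was 7.85 without resting library 5 and 7.47 without tetramer library 5. The list had 5 members higher without tetramer library 4, and 1 member, Gata3, was called lower without resting library 5 (-1.13) and with library totals (-1.15). The list was drawn up with results on several of them known, so its count is no independent evidence on IRF4.

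**Figure D4:**
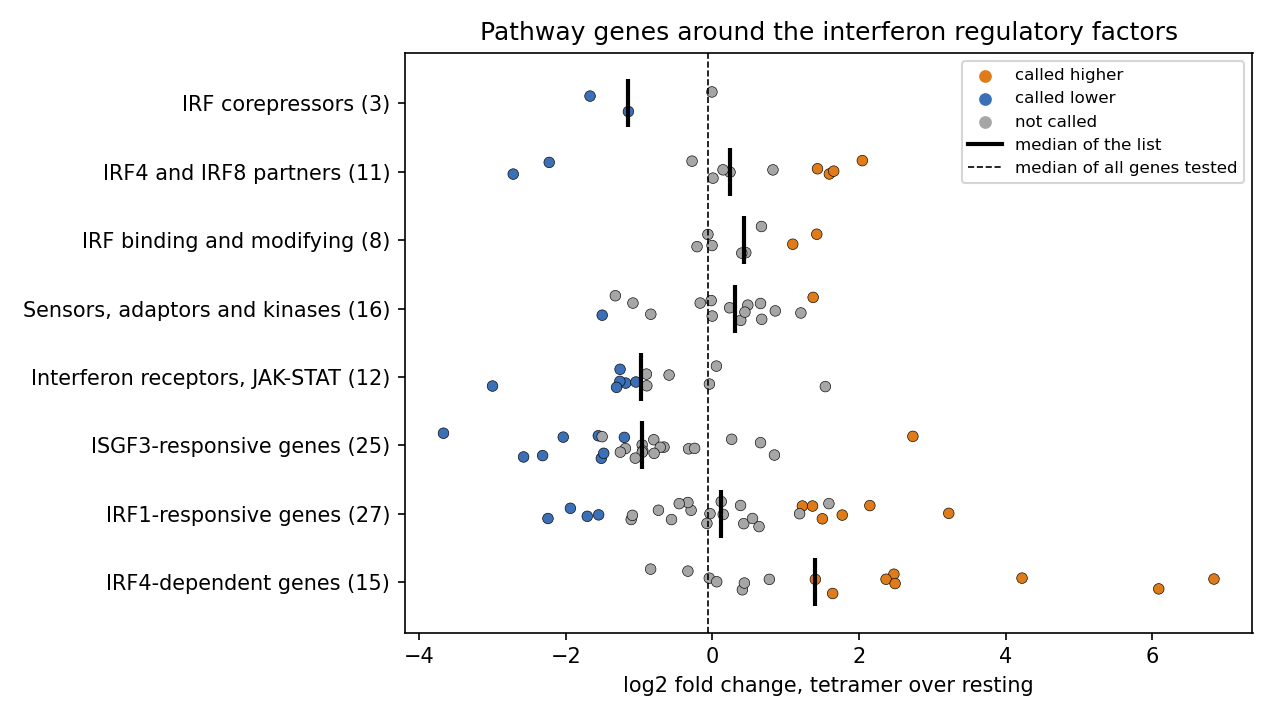
Changes on the log2 scale, tetramer against resting, for the tested genes of 8 lists around the family, with the number tested in parentheses, points coloured by call, a black bar at each list's median and a dashed line at the median of all genes tested. The medians of the interferon receptor and ISGF3-responsive lists lie at -0.97 and -0.96, and that of the IRF4-dependent list at 1.40.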

How the data were processed

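Poly(A+) RNA of sorted NKT cells was sequenced after 23 cycles of PCR on fragments of 200 to 400 nt, per the labels. The authors deposited 1 table of raw read counts, in whole numbers, by gene symbol. Bowtie2, DESeq2 and the build mm9 are named in the submitters' processing notes, and the counting step is not given in the sources here. Of 12021 rows, 1 with a cell that is not a number was left out, and the lowest count in the table is 1. No other sample column was present. Columns were matched to groups by name. Their numbers, 4 and 5, are not the replicate numbers of the titles. No label states that same-group libraries are from different mice, so the p-values reflect only library-to-library spread, possibly technical.

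Counts were fitted with edgeR 4.0.16 in R 4.3.3 (quasi-likelihood F test, default expression filter, TMM scaling, Benjamini-Hochberg adjustment over 11312 genes, threshold 0.05). The standard error comes from the F statistic, and intervals are 95% intervals from its degrees of freedom. The test was checked on simulated counts. Alternatives were DESeq2 1.42.0, limma-voom (limma 3.58.1), other scalings and filters, a test against a fold of 1.5, a block on the column number and each library left out. Lengths and overlaps came from GENCODE M21 and promoters from RefSeq (7 of 7 members matched).

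The members and the 9 functional and 7 cell type lists were chosen with earlier results of these data known. Named genes were the 7 members, Ifng, the 3 called genes with the largest absolute change in each functional list or, with no call, the member with the smallest p, the 2 most abundant genes of each cell type list, and the 3 genes nearest in pattern to each member (without unnamed gene models, Riken clones and symbols turned into dates). Others are marked where they were chosen after their values were seen or, like the overlapping genes, follow from the comparison with a member. Some genes that the rule or the lists take in are not reported here.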

Additional observations from a re-analysis of the deposited data

How the results depend on the processing

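Under 12 alternatives, Irf4 and Irf8 were called higher in 12 of 12, Irf7 was called lower in 11 and Irf9 in 10, and Irf1, Irf2 and Irf3 in 0. Members called lower numbered 2 of 7, but 1 against a fold of 1.5, and 0 (without tetramer library 4) to 2 when single libraries were left out, while those called higher stayed at 2. Over all genes, 1620 were higher and 1366 lower. Lower calls numbered 2250 under library totals, and 785 when a fold of 1.5 was tested. Leaving out single libraries gave 313 to 1488 lower calls (313 without tetramer library 4, 673 without tetramer library 5) and 622 to 1629 higher calls (622 without tetramer library 4). Of 117 pathway genes tested, 23 rose and 23 fell, but 19 and 32 with library totals. The falls numbered 13 against a fold of 1.5, and with single libraries left out the rises ranged from 14 (without tetramer library 5) to 23 and the falls from 3 (without tetramer library 4) to 20, with 14 without tetramer library 5. The causes were not tested. A block on the column number gave 2 members higher and 2 lower (1693 and 1468 over all genes, 24 and 24 among pathway genes) and ended the call of Jak1 among named genes (adjusted p = 0.0791). The numbers are not stated to pair libraries, and deviations of same-numbered libraries correlated at 0.05 across genes.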
